A study of Mus musculus with 12 samples.

Results

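Basement membrane components were followed in bulk RNA sequencing of 10T1/2 cells (spelled CH310T1/2 in the sample labels), an established mouse mesenchymal progenitor line of wild-type genotype. The set holds 35 genes chosen by symbol, among them the laminin chains, collagens IV, VII, XV and XVIII, the nidogens, the heparan sulfate proteoglycans and the proteins that link them. All 35 were listed among the 56748 genes of the deposited table, and 29 of them had enough counts to be tested, against 16465 tested genes in all. The 12 libraries fell into 3 groups of 4. In each group, the cells spent 1 h in suspension (in 0.5% serum by the labels and without serum by the study's methods, which give 0.5% for the gels) and 18 h on hydrogels of 12 kPa stiffness that carried type I collagen (0.05 mg/ml). The col1 group received the collagen alone. For col1-ACLP, the collagen had polymerized with 30 nM recombinant aortic carboxypeptidase-like protein (ACLP, a secreted collagen-binding protein). For col1-ACLP+SB, cells on the same ACLP-containing collagen also received 5 µM SB431542, an inhibitor of the TGFβ type I receptor kinase ALK5. No group received SB431542 on collagen without ACLP, so an effect of the inhibitor alone and its effect on the response to ACLP cannot be told apart. All groups used 1 cell line on 1 gel stiffness.

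A basement membrane is a thin sheet of extracellular matrix that underlies epithelia and endothelia and surrounds muscle, fat and Schwann cells. Laminin, a heterotrimer of an alpha, a beta and a gamma chain, polymerizes on the cell surface, where integrins and dystroglycan hold it. Collagen IV forms a covalent network that nidogens and the heparan sulfate proteoglycans perlecan and agrin connect to laminin, while collagens XV, XVIII and VII tie the sheet to the interstitial matrix. Stromal cells without a basement membrane of their own also make many of these proteins.

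Library totals ran from 29246154 to 52201922 counts, so that counting error was small for members above a few CPM (counts per 1000000 scaled counts of tested genes) and limiting for those near 0. On the first principal component of all tested genes, col1 replicate 2 lay at -86.7, against -11.1 to -8.97 for the other col1 libraries, and results named below that were lost without it are given as such. All 10 mesenchymal markers were detected, with summed levels of 33976 to 35174 CPM on col1, 43859 to 52781 on col1-ACLP and 40515 to 46063 with SB431542 added. The higher sum came from Col1a1 (means of 11904 and 20962 CPM without and with ACLP) and Col1a2 (7307 and 11493), while Pdgfra (420 and 248), Pdgfrb (483 and 437), Vim (5213 and 4903), Prrx1 (508 and 455) and Twist1 (26.8 and 19.9) had lower means with ACLP. Of the cell types with a basement membrane of their own, the markers Cldn5 (endothelial), Epcam (epithelial), Sox10 (Schwann) and Myod1, Myog and Myf5 (muscle) had a count of 0 in all 12 libraries. The summed levels were 2.68 to 5.04 CPM for 7 epithelial and 0.651 to 2.65 for 5 skeletal muscle markers. The 8 endothelial markers summed to 5.14 to 9.45 CPM on col1, 8.82 to 11.5 on col1-ACLP and 5.17 to 7.89 with SB431542 added. For 5 macrophage markers, of which Adgre1 was at 0, the sums were 9.14 to 10.5, 5.32 to 8.85 and 7.48 to 10.7 CPM in the same order. The 5 Schwann markers summed to 28.2 to 34.4 CPM on col1, 45.3 to 49.2 on col1-ACLP and 36.0 to 42.9 with SB431542 added. Against col1, the mesenchymal and Schwann sums did not overlap with those of either group on ACLP, nor the macrophage sum with that of col1-ACLP. Between the groups on ACLP, the Schwann and endothelial sums did not overlap. The part of these markers in the members' results was not tested. In bulk RNA, fewer cells of a kind and less RNA per cell cannot be told apart.

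These cells gave much RNA for basement membrane proteins. Together the 35 genes took 1.25% ± 0.0331 of scaled counts on col1, 1.34% ± 0.0719 on col1-ACLP and 1.28% ± 0.0556 with SB431542 added (SD, n = 4 each), and the median tested member lay at 99.3 CPM, against 15.0 CPM for the median of all tested genes. Levels of different genes are compared here as FPKM, which is CPM per kilobase, from the gene lengths of the table. Per length, the 6 most abundant members were Nid2, Col4a1, Col4a2, Hspg2, Lamb2 and Dag1, with means over 12 libraries of 486, 319, 232, 161, 133 and 101 FPKM.

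**Figure D1:**
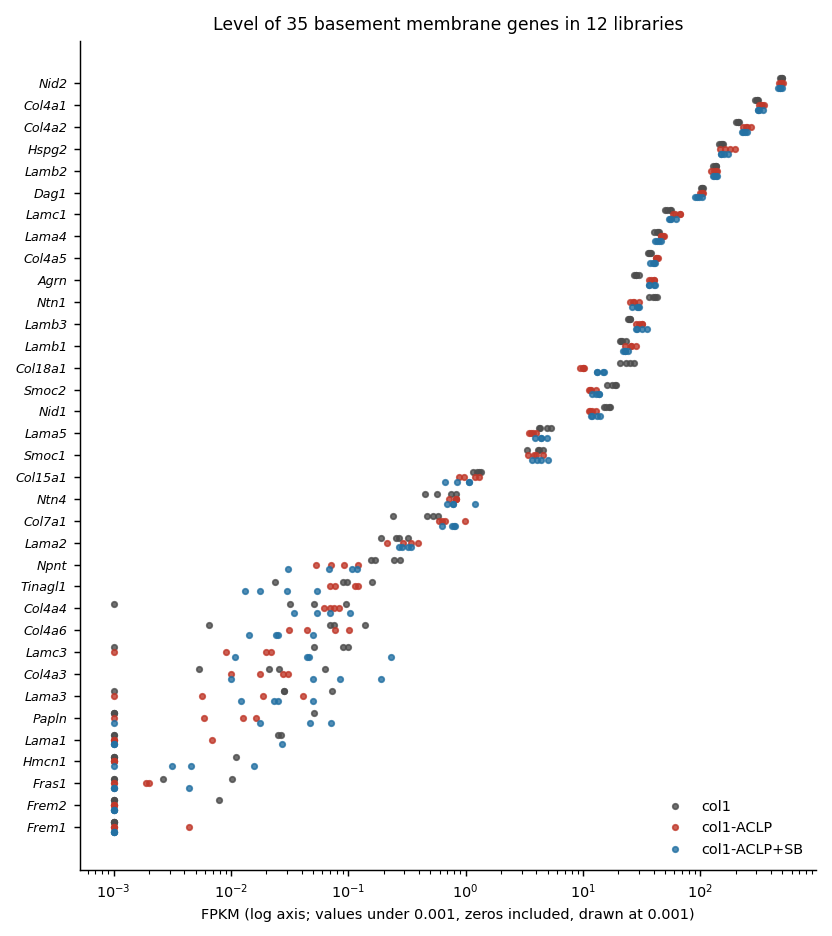
Level of each of the 35 genes as FPKM on a log axis, 1 point per library, coloured by group, with genes ordered by their mean; values under 0.001, zeros included, are drawn at 0.001. The 6 most abundant genes average 101 to 486 FPKM, and the points of the 3 groups lie close together compared with the distance between genes.

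Nid2, the more abundant nidogen, had 475, 489, 495 and 502 FPKM on col1. On col1-ACLP it had 507, 468, 484 and 492, and on col1-ACLP+SB 455, 483, 502 and 476. The 3 groups overlapped, and the log2 fold changes were -0.0071 (95% CI -0.082 to 0.068) for col1-ACLP and -0.034 (-0.11 to 0.041) for col1-ACLP+SB against col1. Lamb2, the laminin β2 chain, had 129, 135, 136 and 134 FPKM on col1. Its values were 136, 125, 132 and 139.8 on col1-ACLP and 128, 138, 136 and 132 on col1-ACLP+SB. These too overlapped, with log2 fold changes of -0.0051 (95% CI -0.092 to 0.081) and -0.0020 (-0.089 to 0.084). Dag1, which encodes both subunits of the laminin receptor dystroglycan, had 101, 104, 103 and 106 FPKM on col1, then 103, 100.3, 103 and 106 on col1-ACLP, and 90.4, 93.4, 103 and 98.1 with SB431542. Its log2 fold change was -0.0076 (95% CI -0.097 to 0.081) with ACLP. Against col1, col1-ACLP+SB gave a log2 fold change of -0.10 (-0.19 to -0.016) that missed the test (adjusted p = 0.151, quasi-likelihood test of edgeR, adjusted by Benjamini-Hochberg). It passed in 2 of 20 alternatives, with library size alone (-0.13, adjusted p = 0.0463) and without col1-ACLP+SB replicate 3 (-0.14, adjusted p = 0.0428, edgeR). For these 3 genes the intervals against col1 exclude changes larger than about 0.19 on the log2 scale in either direction.

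The first comparison, col1-ACLP against col1, asks what collagen-bound ACLP does to the transcripts of these cells. A gene passed the test when its adjusted p in edgeR's quasi-likelihood test was under 0.05, and it was called when the log2 fold change was also beyond 0.58 in size, the threshold used by the study. Col7a1 was called higher, and Col18a1 and Smoc2 were called lower. These are 1 and 2 of 29 tested members, where 2.61% of all tested genes were called higher and 2.36% lower. By the adjusted p alone, 10 members rose and 5 fell, against a background of 9.52% and 8.41% of tested genes. The 10 that rose were Lama4, Lamb1, Lamb3, Lamc1, Col4a1, Col4a2, Col4a5, Col7a1, Hspg2 and Agrn, and those that fell were Lama5, Col18a1, Nid1, Smoc2 and Ntn1. The members are more abundant than most genes, so a background of genes above a floor of 10 CPM was also used, chosen once results were known. It sets a lower limit only. Abundance above the floor was not matched, so the shares do not compare genes of equal abundance. Among genes with a mean of at least 10 CPM, 14 of 18 members passed, against 27.3% of 9159 genes. All 4 col1-ACLP libraries lay above all col1 libraries for 8 members and below them for 6, where 10.9% and 10.3% of tested genes did. The median log2 fold change was -0.0051 over the 29 members and -0.0099 over all tested genes, since changes in both directions were present. The median size was 0.26 against 0.19.

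In the second comparison, col1-ACLP+SB against col1, the cells met ACLP with the ALK5 kinase inhibited. Col7a1 was again called higher and Col18a1 lower, 1 member each, at backgrounds of 1.27% and 1.01%. By the adjusted p alone, Lamb3, Col4a2, Col7a1 and Agrn were higher and Col18a1, Nid1, Smoc2 and Ntn1 lower, 4 and 4 members against 4.6% and 4.54% of tested genes. All 4 col1-ACLP+SB libraries lay above all col1 libraries for 4 members and below them for 6, against 6.7% and 6.32% of tested genes. Among members of at least 10 CPM, 7 of 18 passed, against 14.2% of all tested genes of at least 10 CPM. The third comparison, col1-ACLP+SB against col1-ACLP, asks directly what the inhibitor changed on ACLP. No member was called by edgeR's quasi-likelihood test, by DESeq2 or by limma-voom, and the background was 0.128% of tested genes. At an unadjusted p under 0.05 there were 11 of 29 members, against 12.8% of tested genes. Col18a1 alone passed the adjusted test, upward, where 0.571% of tested genes rose and 0.905% fell, and where 2.53% of genes of at least 10 CPM passed. The 2 groups did not overlap for 1 member that was higher with the inhibitor and 2 that were lower, against 3.65% and 4.52% of tested genes. The first and second comparisons share the col1 libraries, and the third shares libraries with both, so their values below stand side by side and are not separate evidence.

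**Figure D2:**
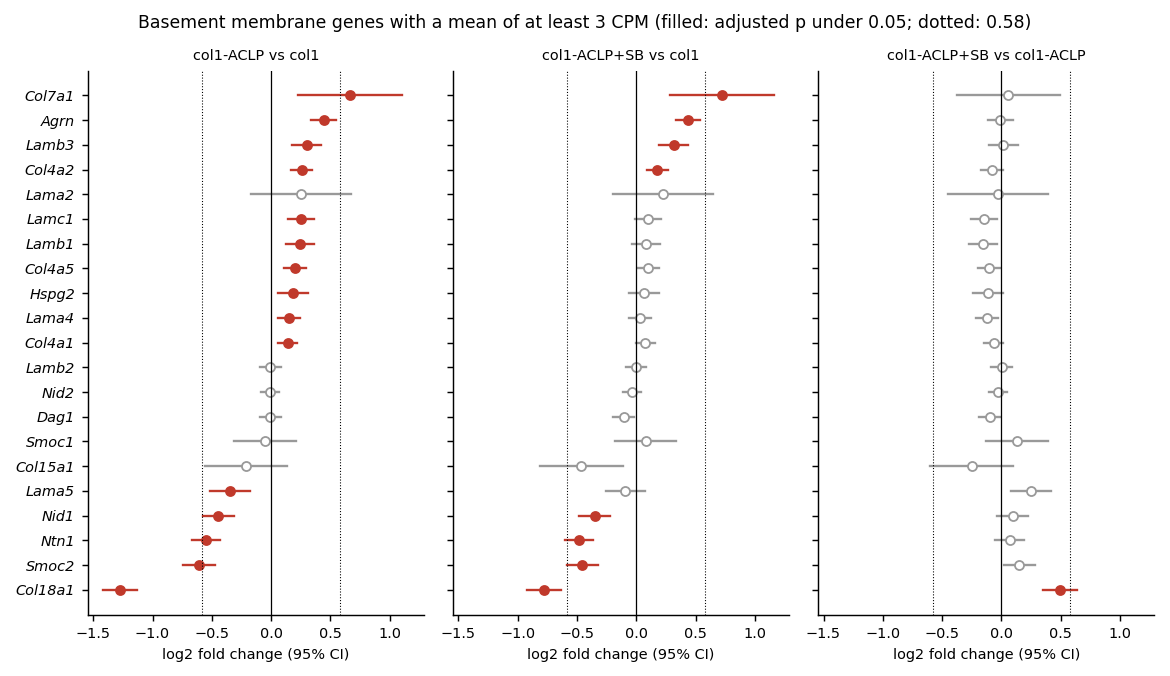
Log2 fold change with its 95% CI for the 21 members with a mean of at least 3 CPM, in the 3 comparisons; filled red points have an adjusted p under 0.05, open grey points do not, and dotted lines mark 0.58. Against col1, Col18a1 lies farthest to the left with ACLP at -1.27 and with SB431542 added at -0.78, and it is the filled point in the third panel, at 0.50.

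Col18a1 showed the largest change of any member that passed. It encodes the heparan sulfate-bearing collagen XVIII, whose C-terminal fragment is endostatin (ENSMUSG00000001435, chr10:76888012-77002382 on the minus strand, in the GRCm39 coordinates of the table). Its levels were 145, 176, 164 and 191 CPM on col1. On col1-ACLP they were 72.0, 70.6, 70.6 and 66.7, and on col1-ACLP+SB 93.1, 104, 106 and 91.7. No library of one group reached the range of another, and the order was the same for every library: col1 highest, col1-ACLP+SB between, col1-ACLP lowest. The means of 169 ± 19.6, 69.96 ± 2.28 and 98.7 ± 7.34 CPM (SD, n = 4) gave a 2.42-fold fall with ACLP (log2 fold change -1.27, SE 0.070, adjusted p = 6.45e-13, edgeR). With SB431542 present the fall from col1 was 1.71-fold (-0.78, SE 0.069, adjusted p = 9.14e-09). Between the groups on ACLP, Col18a1 was 1.41-fold higher with the inhibitor (0.50, 95% CI 0.35 to 0.64, adjusted p = 0.00029), and it remained below the col1 level. All 20 alternatives of scaling, filter, tool, fit or left-out library called both falls, and Col18a1 passed the test of the rise in each. When the fold change was tested against 0.58 itself (glmTreat), the fall with SB431542 was not called. The gene overlaps Slc19a1, a folate transporter on the opposite strand, over 8825 bases. Whether reads were counted by strand is not stated in the sources used here, and without strand the counts of the 2 genes cannot be told apart where they overlap. Slc19a1 had 38.0, 38.1 and 39.6 CPM in the 3 groups (col1, then col1-ACLP, then col1-ACLP+SB), with log2 fold changes of 0.0065 and 0.060 against col1.

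Collagen XVIII transcripts start at 2 places in the RefSeq promoter table for GRCm38.p6, and the counts per gene cannot separate them. The 250 bases before each start are shown since Col18a1 has the largest change among members that passed the test. Those of Nid1, which fell beside it, and Col7a1, the member called higher, follow. Capitals mark matches on either strand to TGACTCA (AP-1), CAGACA (a SMAD box in its context), GGAATG (TEAD), CCAAT (NF-Y) or the CArG box.
Col18a1, upstream start, chr10:77166531-77166780, minus strand: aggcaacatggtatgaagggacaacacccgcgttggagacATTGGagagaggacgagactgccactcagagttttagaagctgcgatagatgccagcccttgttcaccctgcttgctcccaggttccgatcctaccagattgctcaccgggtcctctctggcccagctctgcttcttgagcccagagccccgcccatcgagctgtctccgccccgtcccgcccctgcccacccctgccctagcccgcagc
Col18a1, downstream start, chr10:77113706-77113955, minus strand: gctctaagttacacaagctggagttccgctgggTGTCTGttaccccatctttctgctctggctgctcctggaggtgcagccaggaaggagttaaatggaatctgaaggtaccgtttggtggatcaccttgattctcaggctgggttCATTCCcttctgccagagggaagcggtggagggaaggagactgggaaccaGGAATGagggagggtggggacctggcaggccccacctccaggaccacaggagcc
Nid1, chr13:13437352-13437601, plus strand: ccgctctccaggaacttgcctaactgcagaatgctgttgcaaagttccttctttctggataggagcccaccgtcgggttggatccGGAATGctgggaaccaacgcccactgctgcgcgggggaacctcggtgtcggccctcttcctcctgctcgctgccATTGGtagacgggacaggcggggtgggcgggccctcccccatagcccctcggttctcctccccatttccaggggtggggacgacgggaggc
Col7a1, chr9:108953336-108953585, plus strand: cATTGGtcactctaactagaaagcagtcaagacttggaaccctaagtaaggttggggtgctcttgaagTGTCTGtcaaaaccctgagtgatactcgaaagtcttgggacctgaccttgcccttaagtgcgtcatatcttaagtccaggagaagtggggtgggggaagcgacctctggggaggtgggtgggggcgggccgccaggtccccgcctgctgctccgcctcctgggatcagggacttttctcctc
The downstream Col18a1 start has the letters of the TEAD motif at 2 positions and of the SMAD box at 1, while the upstream start has NF-Y letters only. Over the 31 promoters of the 24 members in the table, 6 (19.4%) held GGAATG, against 12.6% of all 32851 promoters. For CAGACA there were 5 (16.1%, against 17.1%), for CCAAT 12 (38.7%, against 33.8%), for the CArG box 1 (3.23%, against 1.47%) and for TGACTCA 0 (against 4.46%). A match describes the letters of a window and is not evidence of binding. Lama1, Lama3, Lama4, Lamc1, Lamc3, Col4a3, Nid2, Fras1, Smoc1, Smoc2 and Ntn1 were not in the table.

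**Figure D3:**
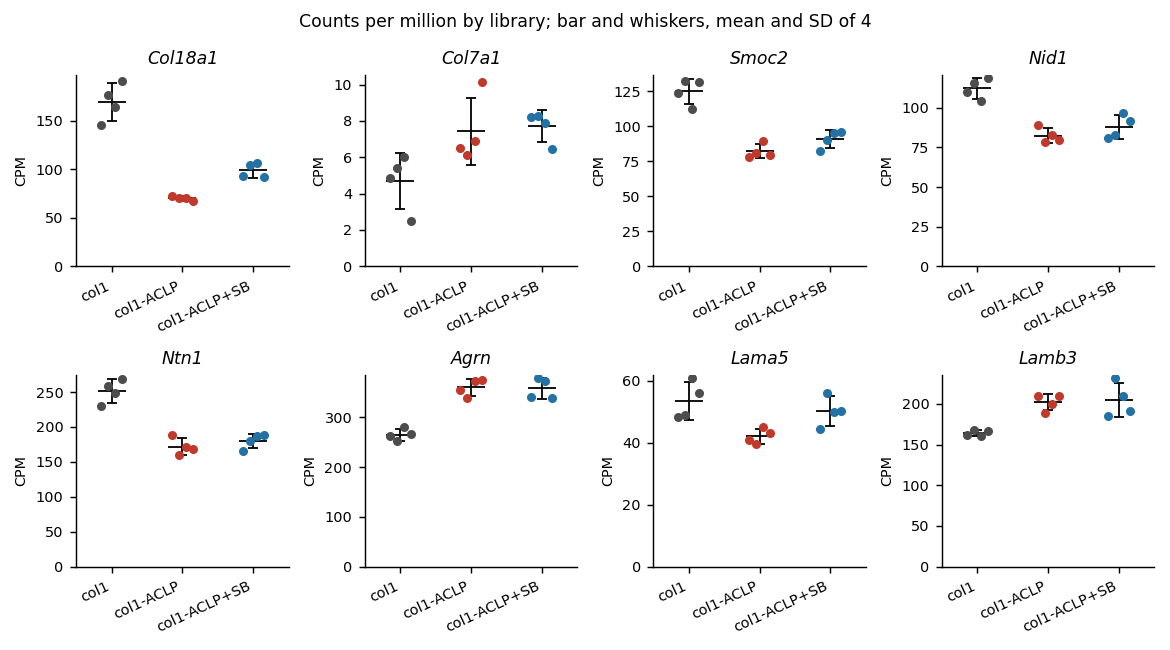
Level of 8 members in CPM by library, with the mean and SD of 4 as a bar and whiskers and the axis starting at 0. Col18a1 separates the 3 groups, at means of 169, 69.96 and 98.7 CPM, while Agrn, Smoc2, Nid1 and Ntn1 separate col1 from both ACLP groups, which overlap each other.

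Among the other collagens, Col7a1 encodes collagen VII, the anchoring fibril protein of skin (ENSMUSG00000025650, chr9:108782654-108813943, plus strand). It was a low transcript, at 4.86, 5.43, 6.01 and 2.49 CPM on col1. On col1-ACLP it had 6.54, 6.11, 6.91 and 10.2, and with SB431542 8.23, 8.29, 7.89 and 6.45. Every library on ACLP lay above every col1 library, though the nearest, 6.11 and 6.01 CPM, almost touched. The increase was 1.59-fold with ACLP (log2 fold change 0.66, SE 0.21, adjusted p = 0.0308) and 1.65-fold with ACLP and SB431542 (0.72, SE 0.21, adjusted p = 0.0307, edgeR). Neither call held in all alternatives. Without col1 replicate 4, which had the lowest level, the log2 fold changes were 0.45 and 0.51 and no longer passed. The call with ACLP was also lost without col1-ACLP replicate 4 (0.48) or col1 replicate 1, where the fold change stayed at 0.68. That with SB431542 was lost at fold changes of 0.69 to 0.74, without col1 replicate 1 or col1-ACLP+SB replicates 1, 2 or 3 and with the replicate number as a block (adjusted p = 0.05058). Col15a1, the paralog of Col18a1, was also low, at 8.00 ± 0.529, 6.90 ± 1.22 and 5.79 ± 1.26 CPM. Its log2 fold changes of -0.21 and -0.46 against col1 did not pass (adjusted p = 0.460 and 0.0944), although all col1-ACLP+SB libraries lay below all col1 libraries.

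Of the laminin chains, Lama4, Lamb1, Lamb3 and Lamc1 rose with ACLP and Lama5 fell. Lama4, the α4 chain of mesenchymal and vascular laminins, made up 89.5% ± 0.722 of laminin alpha FPKM on col1, 92.2% ± 0.337 on col1-ACLP and 90.2% ± 0.977 with SB431542 added. It had 512, 491, 537 and 522 CPM on col1 and 559, 561, 578 and 597 on col1-ACLP, so that the groups did not overlap (log2 fold change 0.15, SE 0.045, adjusted p = 0.0156). The pass was lost without col1 replicate 2 and with scaling by library size alone. Lama5, the α5 chain typical of epithelial and endothelial basement membranes, supplied 9.83% ± 0.727, 7.18% ± 0.292 and 9.12% ± 1.03 of alpha-chain FPKM. It had 48.2, 48.9, 60.9 and 56.0 CPM on col1 and 41.0, 39.5, 45.1 and 43.1 on col1-ACLP. Thus Lama5 fell with ACLP (-0.34, SE 0.082, adjusted p = 0.00332), while Lama4 rose. With SB431542 it had 44.4, 56.1, 50.1 and 50.4 CPM, overlapping both other groups (-0.092 against col1, adjusted p = 0.610). The difference between the groups on ACLP, 0.25 (95% CI 0.083 to 0.42), did not pass (adjusted p = 0.138). Lama2, the α2 chain of muscle and Schwann cells, stayed between 3.18 and 6.57 CPM in all libraries without a passed difference. Lama3, of skin laminin, had at most 30 counts in a library and 0 in 2 of them.

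For the beta and gamma chains, Lamb2 gave 74.1% ± 0.504 of beta-chain FPKM on col1, 70.3% ± 0.407 on col1-ACLP and 71.2% ± 0.742 with SB431542 added. Its own level passed no test. Lamb1, the widely expressed β1 chain, had 206, 231, 215 and 210.2 CPM on col1 and 254, 226, 256 and 283 on col1-ACLP, a rise in which 1 library overlapped (log2 fold change 0.24, SE 0.057, adjusted p = 0.00327). Lamb3, the β3 chain of skin laminin, had 162, 168, 160.4 and 167 CPM on col1. It rose to 210.2, 189, 200.3 and 210.2 with ACLP (0.30, SE 0.059, adjusted p = 0.00055) and to 186, 232, 209 and 191 with SB431542 added (0.32, SE 0.059, adjusted p = 0.00055). Both groups on ACLP lay above all col1 libraries. Its region spans G0s2 and Hsd11b1 on the opposite strand, at 64.4 and 74.0 CPM and over 1057 and 42442 bases. G0s2 rose in the same groups (0.45 in each, adjusted p = 0.00023 and 0.00035), and Hsd11b1 did not pass (0.12 and 0.20, adjusted p = 0.420 and 0.199); without a stated strand setting the counts of these genes cannot be told apart where they overlap. Lamc1, the γ1 chain of most laminins, had 418, 432, 454 and 463 CPM on col1 and 506, 481, 557 and 558 on col1-ACLP (0.25, SE 0.054, adjusted p = 0.00121). In col1-ACLP+SB neither Lamb1 (0.083, 95% CI -0.036 to 0.20) nor Lamc1 (0.10, -0.0086 to 0.21) passed against col1, and neither passed between the 2 groups on ACLP (adjusted p = 0.193 and 0.192). Lamc3 had at most 42 counts in a library.

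Collagen IV came almost wholly from 3 of its 6 chains. On col1, Col4a1 gave 55.2% of collagen IV FPKM, Col4a2 38.1% and Col4a5 6.71%, and the shares stayed within 2 percentage points of these on ACLP. Col4a3, Col4a4 and Col4a6, chains of specialized membranes such as the glomerular one, had at most 56, 57 and 42 counts in a library. Summed over the 6 chains, collagen IV lay at 549 ± 13.7 FPKM on col1, 627 ± 31.4 on col1-ACLP and 596 ± 22.1 with SB431542 added. Col4a1 had 291, 305, 306 and 310.4 FPKM on col1, 338, 319.6, 327 and 352 on col1-ACLP and 311, 309, 339.8 and 318 with SB431542 added. The libraries with ACLP alone lay above all on col1 (log2 fold change 0.14, SE 0.039, adjusted p = 0.0101), a pass that was lost with scaling by library size alone. Col4a2 had 201, 210.3, 210.1 and 214 FPKM on col1. On col1-ACLP it had 248, 231, 246 and 273, and on col1-ACLP+SB 227, 239, 248 and 232. Both groups lay above all col1 libraries (0.26, SE 0.044, adjusted p = 0.00010; 0.18, SE 0.044, adjusted p = 0.00807). Col4a5 rose from 247 ± 5.40 to 285 ± 5.18 CPM with ACLP (0.20, SE 0.045, adjusted p = 0.00157) and lay at 266 ± 12.3 with SB431542, a difference from col1 that missed the test (adjusted p = 0.184).

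Col4a1 and Col4a2 are transcribed away from each other, and their start sites are shown because the first 22 bases of both genes are the same stretch of DNA, in capitals here (RefSeq starts, GRCm38.p6, plus strand).
Col4a1 and Col4a2 starts, chr8:11312801-11312830: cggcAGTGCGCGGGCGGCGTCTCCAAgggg
The RNA of the pair changed unequally. The log2 ratio of Col4a1 to Col4a2 counts within a library, which needs no scaling between libraries, was 0.71, 0.71, 0.71 and 0.71 on col1, with an SD of 0.0030. It was 0.62, 0.64, 0.58 and 0.54 on col1-ACLP and 0.63, 0.55, 0.63 and 0.63 on col1-ACLP+SB. All libraries on ACLP lay below all col1 libraries, by 0.11 and 0.10 on the log2 scale, so Col4a2 gained more than Col4a1. In an exact two-sided permutation test over 35 splits, p was 0.0286 for each group, the smallest that 4 against 4 allows, and 0.0429 after adjustment over 18 ratio tests. The 2 groups on ACLP differed by 0.012 (exact p = 0.714).

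**Figure D4:**
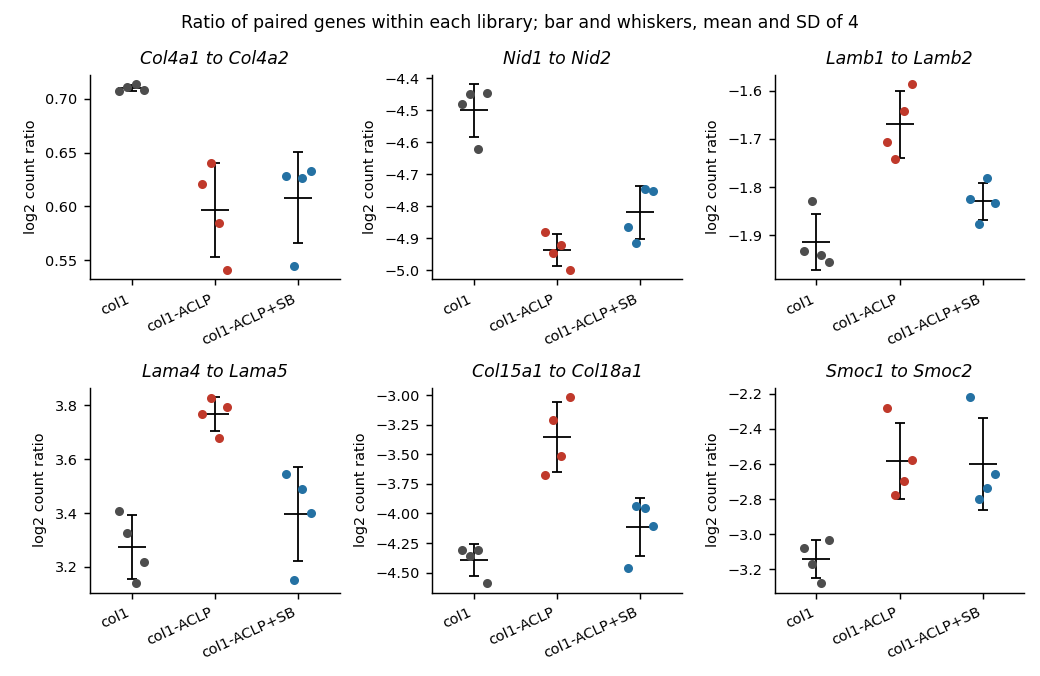
Log2 ratio of the counts of 6 gene pairs within each library, with the mean and SD of 4; the axes do not start at 0. The Col4a1 to Col4a2 ratio is tight on col1 (SD 0.0030) and lower in every library on ACLP, and the Lama4 to Lama5 and Col15a1 to Col18a1 ratios are highest in the 4 col1-ACLP libraries.

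Among the other pairs of paralogs, the ratio of Lama4 to Lama5 was higher with ACLP by 0.49 and Lamb1 to Lamb2 by 0.24, and both were lower with SB431542 than with ACLP alone, by 0.37 and 0.16 (exact permutation p = 0.0286, adjusted 0.0429, for each). Against col1, col1-ACLP+SB differed by 0.12 and 0.085 in these ratios, which did not pass (exact p = 0.257 and 0.0857). Col15a1 to Col18a1 was higher by 1.04 with ACLP (exact p = 0.0286) and by 0.28 with SB431542 present (exact p = 0.114). It was lower by 0.76 between the groups on ACLP (exact p = 0.0286). By contrast, Nid1 to Nid2 was lower than on col1 by 0.44 and 0.32, and Smoc1 to Smoc2 was higher by 0.56 and 0.54 (exact p = 0.0286 for each). For these pairs, the 2 groups on ACLP differed by 0.12 (exact p = 0.0571) and 0.020 (exact p = 0.857). With 1 library left out, the permutation test has 3 values against 4. The difference in Lamb1 to Lamb2 between the groups on ACLP then no longer passed without col1-ACLP+SB replicates 1, 2 or 4 (adjusted p = 0.0735, 0.0791 and 0.0857, exact permutation test), although its size changed little (-0.16, -0.14 and -0.16). Without replicate 1, that in Col15a1 to Col18a1 was -0.64 and did not pass (0.0735). Conversely, against col1, col1-ACLP+SB passed for Lamb1 to Lamb2 without col1 replicate 2 (0.0396) and for Col15a1 to Col18a1 without col1-ACLP+SB replicate 1 (0.0468), and Nid1 to Nid2 passed between the groups on ACLP without col1-ACLP+SB replicate 2 (0.0429).

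Of the linker proteins, Nid1 and Nid2 bridge laminin and collagen IV. Nid1 (ENSMUSG00000005397, chr13:13612136-13686854, plus strand) had 110.1, 116, 104 and 119 CPM on col1. It fell to 88.9, 78.5, 82.7 and 79.6 on col1-ACLP (log2 fold change -0.45, SE 0.064, adjusted p = 8.49e-06) and to 80.9, 82.8, 96.7 and 91.4 on col1-ACLP+SB (-0.35, SE 0.063, adjusted p = 0.00035). Neither group on ACLP reached the col1 range, and they overlapped each other. Nid2, with about the same level in all groups, exceeded Nid1 per length by far, at 486 against 13.6 FPKM over all libraries.

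Agrin and perlecan are heparan sulfate proteoglycans of the laminin network, and the genes of both rose with ACLP, whereas that of collagen XVIII, which also bears heparan sulfate, fell as described above. Agrn, which encodes agrin, had 261, 252, 280.1 and 265 CPM on col1. It had 355, 338, 373 and 375 on col1-ACLP and 340.3, 379, 373 and 339.6 on col1-ACLP+SB. The increases were 1.36-fold and 1.35-fold (log2 fold changes 0.44 and 0.44, SE 0.050 for each, adjusted p = 2.56e-07 and 7.22e-07), and no library on ACLP overlapped col1. Between the groups on ACLP the log2 difference was -0.0084 (95% CI -0.11 to 0.095). Hspg2, which encodes perlecan, had 144, 149.8, 158 and 155 FPKM on col1. Its values were 164, 148, 179 and 197 on col1-ACLP and 150.2, 161, 173 and 151 on col1-ACLP+SB. Here 1 col1-ACLP library lay within the col1 range, and the rise (0.18, SE 0.061, adjusted p = 0.0378) was lost in 7 of 20 alternatives, namely DESeq2, library size alone and leaving out any of col1 replicates 1, 2 or 4 or col1-ACLP replicates 3 or 4. Its size ran from 0.11 without col1-ACLP replicate 4 to 0.25 without col1-ACLP replicate 2. With SB431542 it was 0.067 (95% CI -0.058 to 0.19).

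Smoc2, a matricellular protein that binds calcium (ENSMUSG00000023886, chr17:14499768-14625052, plus strand), had 124, 132, 112 and 131 CPM on col1. On col1-ACLP it had 78.4, 80.9, 89.4 and 79.5, and on col1-ACLP+SB 82.5, 90.4, 95.2 and 96.2. Again neither group on ACLP reached col1. The fall was 1.52-fold with ACLP (log2 fold change -0.61, SE 0.064, adjusted p = 6.78e-08) and 1.37-fold with SB431542 added (-0.46, SE 0.063, adjusted p = 1.15e-05). Without col1 replicate 2 the first value was -0.58, just short of the threshold in size. Smoc1, its paralog, lay at 14.2 ± 1.90, 13.7 ± 1.78 and 15.1 ± 2.00 CPM, with intervals against col1 of -0.31 to 0.21 and -0.18 to 0.34.

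Ntn1 encodes netrin-1, a laminin-related guidance and survival factor. It had 230.0, 258, 248 and 269 CPM on col1, then 188, 159.7, 171 and 168 on col1-ACLP and 165, 179.7, 186 and 189 with SB431542 added. The falls of 1.46-fold and 1.40-fold (log2 fold changes -0.55 and -0.48, SE 0.059 and 0.058, adjusted p = 8.36e-08 and 1.43e-06) separated both groups from col1 and lay just under the call threshold. Ntn4, a netrin found in basement membranes, was low, at 1.67 to 4.50 CPM in all libraries, without a passed difference. Of 7 netrin receptor genes listed, Neo1, Unc5b and Unc5c were expressed enough to test. With ACLP, Neo1 and Unc5b rose (0.27 and 0.41, adjusted p = 0.00024 and 0.00021) and Unc5c fell (-0.31, adjusted p = 0.00022). In col1-ACLP+SB against col1, Unc5b was higher (0.23, adjusted p = 0.0460) and Unc5c lower (-0.38, adjusted p = 3.12e-05), and Neo1 missed the test (0.11, adjusted p = 0.177). The Unc5b result passed in 9 of 20 alternatives: it was lost with RLE size factors, library size alone and the 2 groups alone, and without any of replicates 1, 2 or 3 of col1, 1, 2 or 3 of col1-ACLP, or 3 or 4 of col1-ACLP+SB.

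The remaining members were near the limit of detection. Npnt, which encodes the α8β1 integrin ligand nephronectin, had 0.783, 1.38, 0.850 and 1.23 CPM on col1. It had 0.611, 0.359, 0.267 and 0.461 on col1-ACLP and 0.342, 0.537, 0.154 and 0.595 on col1-ACLP+SB. All 8 libraries on ACLP lay below all 4 on col1, yet the log2 fold changes of -1.31 (95% CI -2.48 to -0.15) and -1.40 (-2.56 to -0.23) did not pass in edgeR (adjusted p = 0.118 and 0.143). In DESeq2 the first passed, at an adjusted p of 0.0496. Tinagl1 had 2 to 26 counts per library. The 6 members that were not tested, Lama1, Papln, Hmcn1, Fras1, Frem2 and Frem1, had at most 10, 14, 10, 6, 4 and 2 counts in any library.

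**Figure D5:**
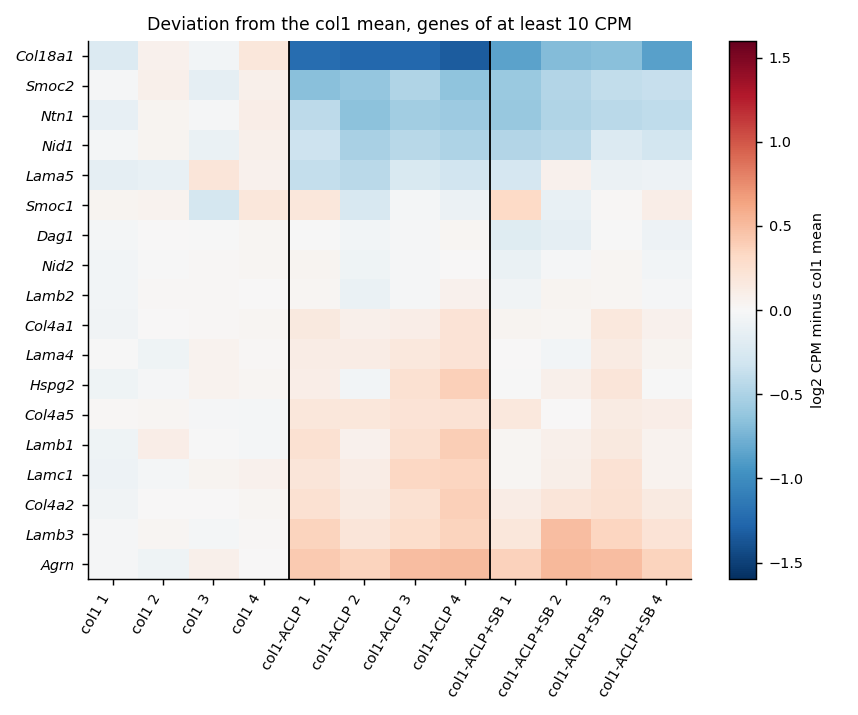
Log2 CPM of the 18 members with a mean of at least 10 CPM, as the difference from the col1 mean, in each of the 12 libraries. The rows for Col18a1, Smoc2, Ntn1 and Nid1 are blue in all 8 libraries on ACLP, and those for Agrn, Lamb3, Col4a2, Lamc1, Lamb1, Col4a5 and Col4a1 are red in all 8, some of them faintly.

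Genes that act on these components were listed with earlier results of the data known, and are described by counts. Their counts with ACLP stand against 9.52% of all tested genes that rose and 8.41% that fell, and against 27.3% of genes of at least 10 CPM that passed either way. Of 15 tested receptor genes, 6 rose and 2 fell with ACLP. Itga6, the α6 subunit of laminin-binding integrins, was called higher (56.8 ± 5.09 to 91.2 ± 1.19 CPM, log2 fold change 0.68, adjusted p = 3.88e-08), and its partners Itgb1 (0.18) and Itgb4 (0.31) and the collagen IV-binding Itga1 (0.46) rose, whereas Itga7 (-0.56), another laminin-binding subunit, fell. With SB431542, Itga6 was lower than with ACLP alone (-0.34, adjusted p = 0.00986) and above col1 (0.34, adjusted p = 0.00118). None of 10 tested genes of dystroglycan glycosylation passed in any comparison, by edgeR, and 2, 0 and 1 of them had an unadjusted p under 0.05 in the order given above, against 28.3%, 19.9% and 12.8% of tested genes. Of 12 genes of assembly, crosslinking and processing, 6 rose and 1 fell with ACLP. Serpinh1, the collagen chaperone HSP47, rose (0.45, adjusted p = 2.93e-09), as did Pxdn, the peroxidase that crosslinks collagen IV (0.14, adjusted p = 0.0297), though the latter was lost with library size alone and without any of col1 replicates 1 or 2 or col1-ACLP replicates 1, 3 or 4. Bmp1, a protease that matures laminin and perlecan, fell (-0.39, adjusted p = 3.29e-07), and was higher with SB431542 than without it on ACLP (0.25, adjusted p = 0.00375).

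Of 10 heparan sulfate genes, 2 rose with ACLP and none fell, so that 20% passed, against 17.9% of all tested genes. Sulf1, an extracellular sulfatase that edits the chains of perlecan, agrin and collagen XVIII, was called higher (14.4 to 24.4 CPM, log2 fold change 0.76, adjusted p = 5.37e-05) and lay at 17.5 CPM with SB431542. Of 9 tested turnover genes, 3 rose and 2 fell, against the 9.52% and 8.41% of all tested genes. Timp3, a matrix-bound protease inhibitor, was called higher, from 289 to 563 CPM (0.96, adjusted p = 8.40e-13), and lay at 418 with SB431542, lower than with ACLP alone (-0.43, adjusted p = 7.13e-05) and higher than on col1 (0.53, adjusted p = 7.34e-08). The more abundant Timp2 fell with ACLP, from 3246 to 2748 CPM (-0.24, adjusted p = 1.22e-05, edgeR). Timp1 did not pass (-0.06, adjusted p = 0.722). Ctsl, a cathepsin that can release endostatin from collagen XVIII, rose (0.40, adjusted p = 1.28e-06), and the membrane collagenase Mmp14 fell (-0.49, adjusted p = 4.14e-09). Among 8 tested basement membrane genes outside the set, 2 fell with ACLP, against 8.41%. Vwa1, a perlecan-binding protein at 3.13 CPM on col1, was called lower (-0.85, adjusted p = 0.0256) but lost this with no filter, with limma-voom and without any of col1 replicates 1 or 2 or col1-ACLP replicates 3 or 4, and the matrilin Matn2 fell (-0.41, adjusted p = 6.37e-07).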

How the data were processed

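Poly(A) RNA of 12 libraries was sequenced with paired-end reads, and the authors mapped them with HISAT2. The study's methods name GRCm39 as the genome and the submitters' processing notes name mm10. Gene coordinates in the deposited table were taken as GRCm39. Of 56017 identifiers shared with GENCODE M39, 60.3% have the same start and end and 99.4% start within 50000 bases of its position. A window of that width cannot separate the builds for every gene, and matches to mm10 were not counted. The values that the authors deposited are counts for each gene, not normalized, and all 12 columns of the table were used. The counting tool and its strand setting are not given in the sources used here.

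The tests were run on these counts in edgeR 4.0.16 under R 4.3.3. Genes were kept by filterByExpr (16465 of 56748), libraries were scaled by TMM factors, and glmQLFit and glmQLFTest were run with 1 mean per group over all 12 libraries (the study used DESeq2, with a design that is not given in the sources used here), with Benjamini-Hochberg adjustment over all tested genes. CPM are counts per 1000000 of the TMM-scaled total of tested genes, and FPKM divide these by the deposited gene length in kilobases. Ratios within a library used a pseudocount of 0.5 and an exact two-sided permutation test. The labels do not say that replicates came from separate cultures, and the study calls them biological replicates. Library totals of 29246154 to 52201922 counts leave counting error small for all but the lowest members. The intervals printed for log2 fold changes rest on the quasi-likelihood fit, so they also include the spread between libraries. The p-values measure the spread between these libraries. No replicates were alike within sampling noise (chi-square per degree of freedom 7.49 to 20.1), and none was merged.

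The 35 members, the gene lists and the tests were chosen with earlier results of these data known. Each library's values were given for members called in any comparison and for the 6 most abundant by FPKM. Values by library of other members, such as Agrn, Nid1 and Npnt, are shown by a choice made after they were seen. Genes outside the set come from 7 lists, 6 marker lists and a search for genes that overlap a member. Alternatives changed the size factors, the filter, the tool (DESeq2 1.42.0, limma-voom 3.58.1), the fit, the threshold, the pseudocount or the libraries, 1 at a time. The procedure was also run on simulated counts, drawn with the spread fitted to these data and with changes larger than most reported here. That run does not show how well the smaller changes are found. Promoter letters were read from RefSeq windows on GRCm38.p6, whose coordinates were not mixed with those of the table.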

Additional observations from a re-analysis of the deposited data

Results flagged for a closer look

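In a search for single libraries that lay far from the other 3 of their group, 105 groups of 4 values were examined (29 tested members and 6 ratios in 3 groups) and 3 were found, where chance gives about 5.25, or 1 in 20. The Col4a1 to Col4a2 log2 ratio was 0.545 in col1-ACLP+SB replicate 2, against 0.626 to 0.633 in the other libraries of that group. Lamc3 was at 1.41 CPM in the same library, against 0.0662 to 0.285. Ntn4 was at 2.73 CPM in col1-ACLP replicate 4, against 3.07 to 3.12.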

How the results depend on the processing

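Of the members, Col18a1 kept its calls against col1 and its pass between the groups on ACLP in all 20 alternatives of scaling, filter, tool, fit and left-out library, and Agrn, Nid1, Ntn1, Lamb3, Col4a2 and Smoc2 kept their passes against col1 in both groups on ACLP. With col1-ACLP against col1, the adjusted p alone gave 10 members higher and 5 lower (1568 and 1385 of all genes), and testing against 0.58 itself (glmTreat) gave 0 and 1 (144 and 86 of all genes). Leaving out libraries gave 0 to 1 members called higher and 1 to 3 lower, the latter being Col18a1, Smoc2 and Ntn1 (without col1 replicate 1 or col1-ACLP replicate 1). Over all genes, the counts with a library left out lay on both sides of the 430 higher and 389 lower of the main fit. They were fewest in both directions without col1-ACLP replicate 4. For col1-ACLP+SB against col1, the adjusted p alone gave 4 and 4 members (757 and 747 genes), glmTreat 0 and 0 (54 and 27 genes), and left-out libraries 0 to 1 called higher. For col1-ACLP+SB against col1-ACLP, the adjusted p alone gave 1 member higher (94 genes higher, 149 lower). For all genes in that comparison, calls were 14 higher and 7 lower, and became 26 and 20 with no filter, 24 and 15 with DESeq2, 8 higher with limma-voom, 11 lower with the 2 groups alone, 0 and 0 with glmTreat, and 4 to 17 and 4 to 12 with libraries left out (fewest higher without col1-ACLP+SB replicate 4, fewest lower without col1-ACLP replicate 4, most lower without col1 replicate 2). Scaling by library size alone moved the median log2 fold change by -0.050, -0.024 and 0.026.

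No pairing by replicate number was seen: deviations of equally numbered libraries correlated at -0.037 to 0.036. With the replicate number as a block, 1 member was called higher and 2 lower with ACLP. Over all tested genes, the block called somewhat fewer with ACLP than the 430 higher and 389 lower of the main fit. With SB431542 against col1, the block called 0 members higher (Col7a1, adjusted p = 0.05058, edgeR) and 1 lower. The main fit called 209 and 167 of all tested genes there. Between the groups on ACLP, the block called 0 and 0 members.

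Directions that turned all belonged to differences near 0 that passed no test, and the cause was not tested. Between the groups on ACLP, Lamb2 became -0.0021 with no filter and Agrn 0.018 with library size alone. With libraries left out, Lamb2 ran from -0.028 to 0.022 (ACLP against col1), from -0.018 to 0.018 (with SB431542 against col1) and from -0.028 to 0.027 (between the groups on ACLP). With ACLP against col1, Nid2 ran from -0.024 to 0.0086, Smoc1 from -0.14 to 0.013 and Dag1 from -0.019 to 0.0030. Smoc1 ran from -0.0075 to 0.14 with SB431542 against col1. Between the groups on ACLP, Lamb3 ran from -0.051 to 0.059, Col7a1 from -0.027 to 0.24, Agrn from -0.039 to 0.015, Npnt from -0.33 to 0.20, the Col4a1 to Col4a2 ratio from -0.0068 to 0.033 and the Smoc1 to Smoc2 ratio from -0.15 to 0.080. Other ratios crossed the threshold of 0.05 on the adjusted p of the exact permutation test with a library left out: between the groups on ACLP, Nid1 to Nid2 (0.094 to 0.15), Lamb1 to Lamb2 (-0.18 to -0.13) and Col15a1 to Col18a1 (-0.87 to -0.64), and with SB431542 against col1, Lamb1 to Lamb2 (0.070 to 0.11) and Col15a1 to Col18a1 (0.21 to 0.40). Lama3, Lamc3, Npnt, Tinagl1, Col4a3, Col4a4 and Col4a6, with at most 57 counts in any library, could show only large differences at this depth.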
